A study of Saccharomyces cerevisiae with 4 samples.

Results

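The 35 genes described here encode subunits of the yeast proteasome and 3 of its regulators. They were found by symbol among the 5656 genes that the probe annotation of the array names singly, and the brightest single-gene probe set over the 4 arrays stood for each gene. All 35 were matched and all 35 passed the filter on dim genes. The list holds 14 genes of the core particle (7 α and 7 β subunits), 18 of the regulatory particle (9 of the base, 8 of the lid, and *RPN10*) and the regulators *RPN4*, *UMP1* and *BLM10*.

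Transcript signals came from 4 single-colour Affymetrix Yeast Genome S98 arrays, 2 of the wild type SEY6210 and 2 of its derivative MEY12A, in which *CCW12*, coding for a mannoprotein of the cell wall, is disrupted (*ccw12*Δ). SEY6210 is a *MAT*α strain with mutant alleles of *URA3*, *LEU2* and *LYS2*, deletion alleles of *HIS3*, *TRP1* and *SUC2*, and wild-type *GAL* genes. MEY12A shares them all and carries *URA3* at the *CCW12* locus (*ccw12::URA3*), so that *URA3* is functional in the mutant alone. Both strains were grown in YPD with added adenine to an OD600 of 1, each array took a pool of independent RNA preparations, and 1 strain of each genotype was used. The description of wild type replicate 2 names SEY6211, a *MAT***a** strain, and the source of both mutant samples is given as SEY6219. The *MAT*α genes *MF(ALPHA)1*, *MF(ALPHA)2*, *STE3* and *SAG1* had signals from 1331 to 11687 on the 4 arrays. Of the 6 *MAT***a** genes, *STE2*, *BAR1*, *AGA2* and *STE6* lay between 1.2 and 40.3, *MFA1* between 33.4 and 117 and *MFA2* between 205 and 271.

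The proteasome is the protease that degrades ubiquitin-tagged proteins in the cytosol and nucleus. Its core particle is a barrel of stacked rings, with α subunits that gate the entrance and β subunits that line the chamber and include the catalytic ones. The regulatory particle caps the barrel. Its base holds the ATPases that unfold the substrate, and its lid holds the deubiquitylase Rpn11p. In *S. cerevisiae* the transcription factor Rpn4p drives expression of the proteasome genes and is itself a short-lived proteasome substrate, which forms a feedback loop.

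The deposited signals are on a linear scale, and log2 fold changes are *ccw12*Δ over wild type. *CCW12* had signals of 24314 and 24118 in the wild type and 4260.3 and 3919 in the mutant, and *URA3* had 3.9 and 6.7 in the wild type and 59.5 and 54.2 in the mutant. Median signals of the 9335 probe sets of an array ranged from 117.9 to 144.4, and the median log2 fold change of the 4532 genes tested was 0.18. Genes of chromosomes II, IX and X stood apart, with a median of 0.97 for 783 genes against 0.09 for the 3749 others. Wild type replicate 1 also stood apart, with a 3′ to 5′ signal ratio of 2.99 for *ACT1* against 1.38 to 1.49 on the other arrays. For *SPT15* the ratio was 7.12 against 2.87 to 3.69, and for *SRB4* 9.82 against 2.20 to 3.52. The SD of the log2 difference between arrays of a strain was 0.63 in the wild type and 0.40 in the mutant. In RNA of whole cultures, a change in the level per cell and a change in the share of expressing cells cannot be told apart. Nothing in the labels ties same-numbered arrays to a shared culture or day. Limma p-values rest on the spread between 2 pools per strain, which limma draws toward the spread of other genes of similar signal.

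Of the 35 proteasome genes *RPN4* and *PRE7* rose past the test in *ccw12*Δ and 33 did not pass, a share of calls near that of all genes tested. The median log2 fold change of the 35 genes was 0.59, a median fold of 1.51, and the values ran from 0.04 (*RPN8*) to 1.63 (*PRE7*). All 35 values were above zero on the deposited scale, but 30 were after quantile normalization, 28 with each array centred on its median, which moved the median of all genes to -0.12, and 33 with chromosomes centred. Of all genes tested, 64.3% had a value above zero as deposited. The share was 46.6% after quantile normalization, 40.0% with each array centred on its median and 50.1% with chromosomes centred. Under limma with Benjamini-Hochberg adjustment over all 4532 genes, 2 of the 35 were higher (5.30% of all genes were) and 0 were lower (0.596% of all genes were). At an unadjusted p under 0.05, 13 of the 35 were higher, against 18.1% of all genes.

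In 29 of the 35 genes both *ccw12*Δ signals exceeded both wild-type signals (37.8% of all genes tested did). With each array centred on its median this held for 16 of the 35 and for 21.4% of all genes. The 6 genes whose strains overlapped were *PRE9*, *RPT3*, *RPT6*, *RPN6*, *RPN8* and *BLM10*. *PUP2* was barely separated, with 549.4 in the higher wild-type array and 549.9 in the lower mutant array. Against each pairing of a mutant with a wild-type array, the median of the 35 genes was between 0.35 and 0.77, and that of all genes between 0.09 and 0.28. The number of the 35 genes above zero was between 31 and 34 in these pairings, and the share of all genes between 57.4% and 65.6%.

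The count of calls moved with single arrays. Without wild type replicate 1 limma called 7 of the 35 genes (13.8% of all genes), it called 19 without wild type replicate 2 (21.8% of all genes), without *ccw12*Δ replicate 1 it called *PRE7* alone, and without *ccw12*Δ replicate 2 it called 0. The count of all genes called moved with it, from 62 to 989. The median of the 35 genes stood 0.41 above the median of all genes tested, and between 0.33 and 0.50 above it in the 15 alternative settings.

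**Figure D1:**
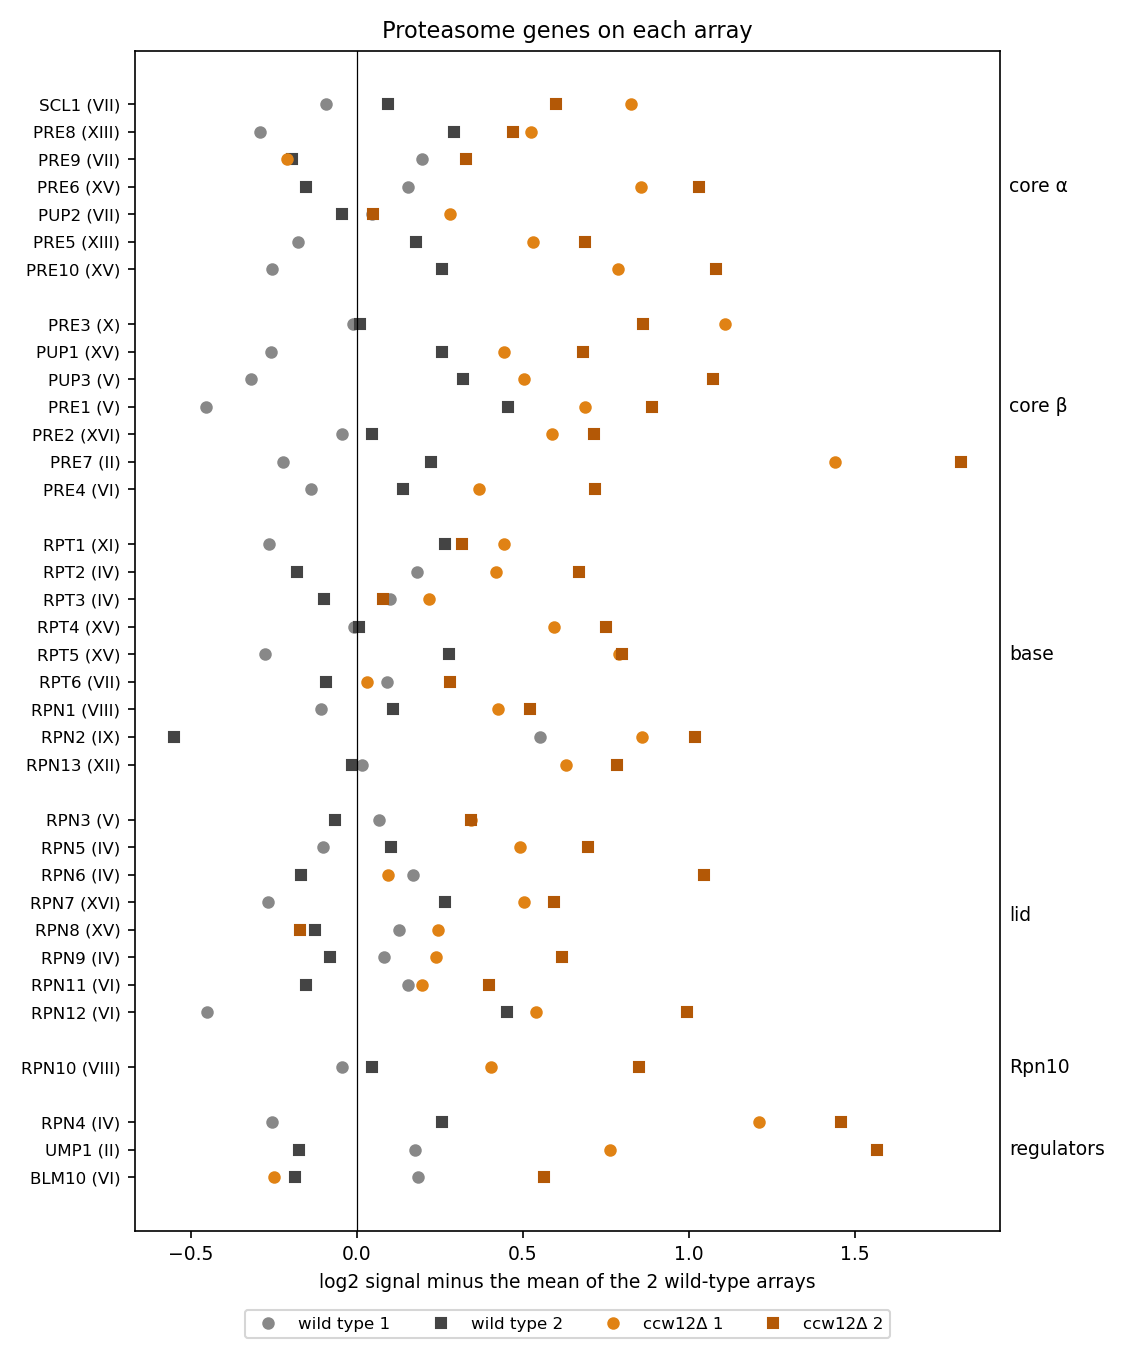
Log2 signal of each proteasome gene on each array, minus the mean of the 2 wild-type arrays of that gene; grey and black points are wild type replicates 1 and 2, orange circles and brown squares *ccw12*Δ replicates 1 and 2, and the chromosome stands beside the gene. In 29 of 35 genes both mutant points lie to the right of both wild-type points.

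*RPN4*, coding for the activator of proteasome genes, lies on chromosome IV, whose tested genes had a median log2 fold change of 0.05. Its signals were 182.7 and 260.4 in the wild type and 504.7 and 599.4 in *ccw12*Δ. The strains did not overlap, and the 4 ratios of a mutant to a wild-type array ran from 1.94 to 3.28. Its log2 fold change was 1.33 (standard error, SE, 0.30, limma adjusted p = 0.0418), a fold of 2.52. The log2 fold change stayed between 1.03 and 1.59 in the 15 alternatives, while the adjusted p passed the threshold in 7 of them and reached 0.259 without *ccw12*Δ replicate 2. After chromosomes were centred it was 1.28, at an unadjusted p of 0.0019 and an adjusted p of 0.124 from limma.

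*UMP1*, which encodes the chaperone of core particle maturation, lies on chromosome II. Signals were 182 and 143 in the wild type and 274 and 478 in the mutant, so the mutant arrays were higher and also far apart. The log2 fold change was 1.16 (SE 0.34, limma adjusted p = 0.0807) and did not pass, and it was 0.24 after its chromosome was centred. *BLM10* codes for an alternative activator that binds the ends of the core particle. Its signals were 586 and 454 in the wild type and 434 and 762 in *ccw12*Δ, an overlap, with a log2 fold change of 0.16 (SE 0.35). A dimmer probe set of *BLM10* gave 0.80, from 170.7 and 539.9 in the wild type against 504.6 and 554 in the mutant, again an overlap.

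By the fold rule, which asks for a mean log2 ratio of at least 1 with all 4 ratios in the same direction, *PRE7*, *RPN4* and *UMP1* were higher, 3 of 35 genes against 10.4% of all genes tested. The rule picked 5 of the 35 without wild type replicate 1 (9.82% of all genes), 7 when replicate 2 of that strain was left out (14% of all genes), 8 without *ccw12*Δ replicate 1 (12.7% of all genes), and *RPN4* alone after chromosomes were centred (2.32% of all genes).

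The β subunits form the inner rings of the core particle. Both mutant signals exceeded both wild-type signals in 7 of 7 β genes (37.8% of all genes tested), and their median log2 fold change was 0.79. Of all tested genes of chromosomes II, IX and X, which hold *PRE7* and *PRE3*, 83.5% were separate in this way. With chromosomes centred the median of the β genes was 0.51, and 6 of 7 were above zero. *PRE7* on chromosome II, coding for a non-catalytic β subunit, had signals of 560.3 and 763 in the wild type and 1773 and 2306 in *ccw12*Δ. These were the most widely separated strains among the 35 genes, with ratios from 2.32 to 4.12. The log2 fold change was 1.63 (SE 0.30, limma adjusted p = 0.0271), a fold of 3.09. It passed in 9 of 15 alternatives, and not without *ccw12*Δ replicate 2 (adjusted p = 0.194 from limma). With its chromosome centred the log2 fold change was 0.70 and the adjusted p was 0.359, the highest of its alternatives.

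*PRE3*, *PUP1* and *PRE2* encode the catalytic β subunits, of caspase-like, trypsin-like and chymotrypsin-like specificity. *PRE3* on chromosome X had signals of 1385 and 1406 in the wild type and 3009.9 and 2533 in *ccw12*Δ. Replicates lay close together, and the log2 fold change was 0.98 (SE 0.26, limma adjusted p = 0.0610), below the 1.06 median of its chromosome. Dimmer probe sets of *PRE3* gave 1.81 and 2.13, with wild-type signals of 165.4 and 320.7 and of 160 and 427.8. *PUP1* on chromosome XV had signals of 932 and 1332 against 1515 and 1787, with a log2 fold change of 0.56. *PRE2* on chromosome XVI had 1674 and 1783 against 2598 and 2836, with a log2 fold change of 0.65 (SE 0.25, limma adjusted p = 0.171). None of the 3 catalytic genes passed the test. The structural β genes *PUP3*, *PRE1* and *PRE4* had log2 fold changes of 0.79, 0.79 and 0.54. *PRE1* showed a wide gap between the wild-type arrays, at 545 and 1022, against 1201 and 1383 in the mutant.

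The α subunits form the outer rings. Their median log2 fold change was 0.61, 0 of 7 passed limma, and the strains were separate in 6 of 7 (37.8% of all genes tested). *PRE6*, whose chromosome XV had a median of 0.08, had signals of 1657 and 1339 in the wild type and 2694 and 3040.2 in *ccw12*Δ. Both mutant signals were well above both wild-type signals, with a log2 fold change of 0.94 (SE 0.27, limma adjusted p = 0.0735). *PRE10* on the same chromosome had 606 and 864 against 1248 and 1530.0, a log2 fold change of 0.93 (SE 0.31, limma adjusted p = 0.115). *SCL1*, *PRE5* and *PRE8* had log2 fold changes of 0.71, 0.61 and 0.50, with *SCL1* at 396 and 451 in the wild type and 749 and 640.3 in the mutant. At the low end were *PUP2* (0.16) and *PRE9* (0.06). *PRE9* encodes the only α subunit that yeast can live without, and its signals were 1005 and 765 against 758 and 1102, an overlap of the strains.

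**Figure D2:**
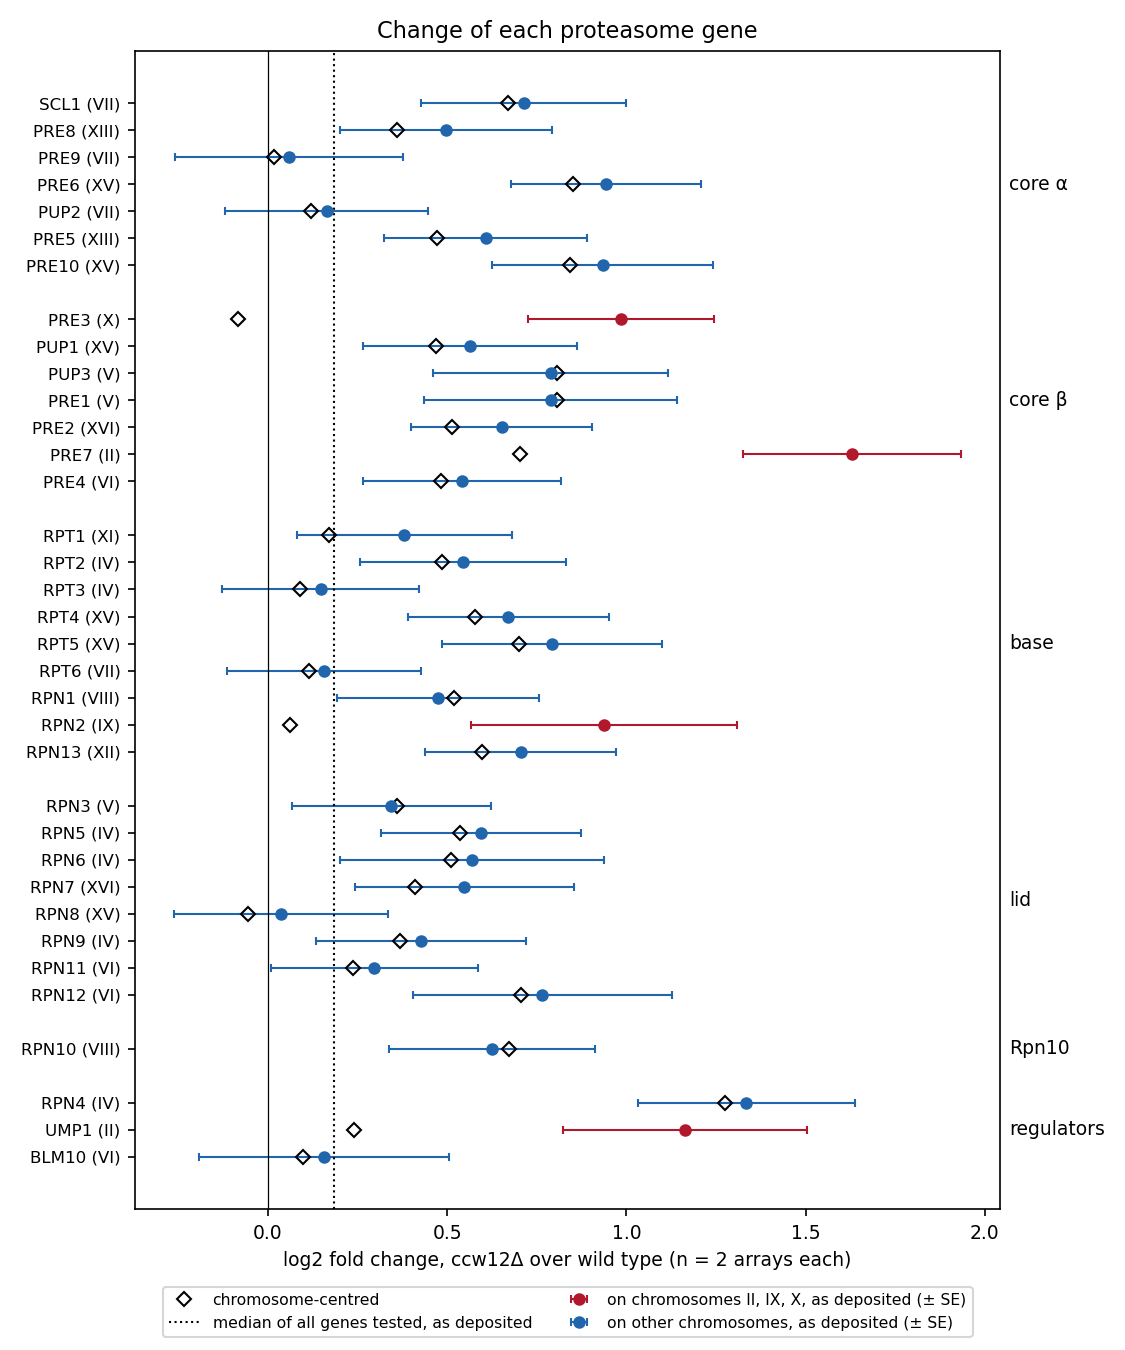
Log2 fold change of each gene, *ccw12*Δ over wild type, as deposited (filled points ± standard error from limma, red on chromosomes II, IX and X) and after chromosomes were centred (open diamonds). *PRE3*, *RPN2*, *UMP1* and *PRE7* move far to the left when their chromosomes are centred, and *RPN4* moves from 1.33 to 1.28.

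The base of the regulatory particle joins a ring of 6 ATPases to the scaffolds Rpn1p and Rpn2p and the ubiquitin receptor Rpn13p. Of its 9 genes 0 passed limma (4 at an unadjusted p under 0.05, against 18.1% of all genes). The strains were separate in 7, against 37.8% of all genes, and the median log2 fold change was 0.54. Among the ATPase genes the median was 0.46. *RPT5*, which had the highest value of them, had signals of 327 and 479.9 in the wild type and 684 and 689 in the mutant, with a log2 fold change of 0.79 (SE 0.31, limma adjusted p = 0.170). Its 3 dimmer probe sets gave 0.70, 0.95 and 1.37. The 0.70 came from signals of 10.2 to 23.7, below the filter on dim genes. The wild-type arrays lay far apart for 0.95 (70.7 and 173.5) and for 1.37 (122.7 and 355.6). *RPT4*, *RPT2* and *RPT1* followed with 0.67, 0.54 and 0.38. *RPT6* had 1624 and 1431 against 1556 and 1853, and *RPT3* had 300.4 and 262 against 326 and 296, so that the strains overlapped in both, with log2 fold changes of 0.16 and 0.15.

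*RPN13* on chromosome XII had the tightest wild-type values among the non-ATPase genes of the base, 1166 and 1143, against 1785 and 1985 in *ccw12*Δ. Its log2 fold change was 0.71 (SE 0.27, limma adjusted p = 0.163). *RPN2* on chromosome IX had 1810.2 and 845 in the wild type against 2241 and 2503 in the mutant. The wild-type arrays of *RPN2* were the most discordant among the 35 genes, and its log2 fold change of 0.94 had a standard error of 0.37 (adjusted p = 0.180 from limma). It lay near the chromosome IX median of 0.89. *RPN1* had a log2 fold change of 0.47.

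The lid carries the deubiquitylase and its structural partners. Of the 8 lid genes on the list 0 passed limma, and 0 were at an unadjusted p under 0.05. The strains were separate in 6 of 8 (37.8% of all genes tested), and the median log2 fold change was 0.49. *RPN12* had the highest value, 0.77 (SE 0.36), from signals of 112 and 209.9 in the wild type and 223 and 306 in *ccw12*Δ. The wild-type arrays of this gene differed by 0.90 on the log2 scale, more than the strains did. *RPN11*, the deubiquitylase gene, had 815 and 659 against 839.5 and 964, a log2 fold change of 0.30 (SE 0.29). *RPN5*, *RPN7*, *RPN9* and *RPN3* had 0.59, 0.55, 0.43 and 0.34. *RPN6* had 723 and 572 against 686 and 1326, and its log2 fold change of 0.57 was 0.09 without *ccw12*Δ replicate 2. *RPN8* had 473 and 397 against 513.5 and 384, the smallest log2 fold change of the 35 (0.04, SE 0.30). *RPN10*, which encodes a ubiquitin receptor between base and lid, had 1047 and 1116 against 1430 and 1946, a log2 fold change of 0.63 (SE 0.29).

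Core and regulatory particle were compared through the mean log2 deviation of their genes on each array. The medians of the log2 fold changes were 0.68 for the core and 0.55 for the regulatory particle. The core minus regulatory difference of the mean deviations was -0.13 in wild type replicate 1 and 0.13 in replicate 2, and it was 0.21 and 0.20 in the mutant replicates. The strains thus differed by 0.20 (SD of the 4 array ratios 0.16), less than the gap between the wild-type arrays, with a two-sided exact permutation p of 0.333, the smallest that 2 arrays against 2 allow. Against wild type replicate 2 the medians were 0.34 for the core and 0.35 for the regulatory particle in *ccw12*Δ replicate 1, and 0.55 for both in *ccw12*Δ replicate 2. Against wild type replicate 1, the array with the high 3′ to 5′ ratio, they were 0.76 and 0.38, and 0.87 and 0.61. The core median was 0.31 higher in wild type replicate 2 than in replicate 1, with 11 of 14 core genes higher and 7 of 7 β genes, whereas the regulatory median was 0.08 lower. The part of the 3′ to 5′ ratio in this gap was not tested. With 2 arrays per strain the permutation test could not have passed, and whether the particles differ in their response was not settled.

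**Figure D3:**
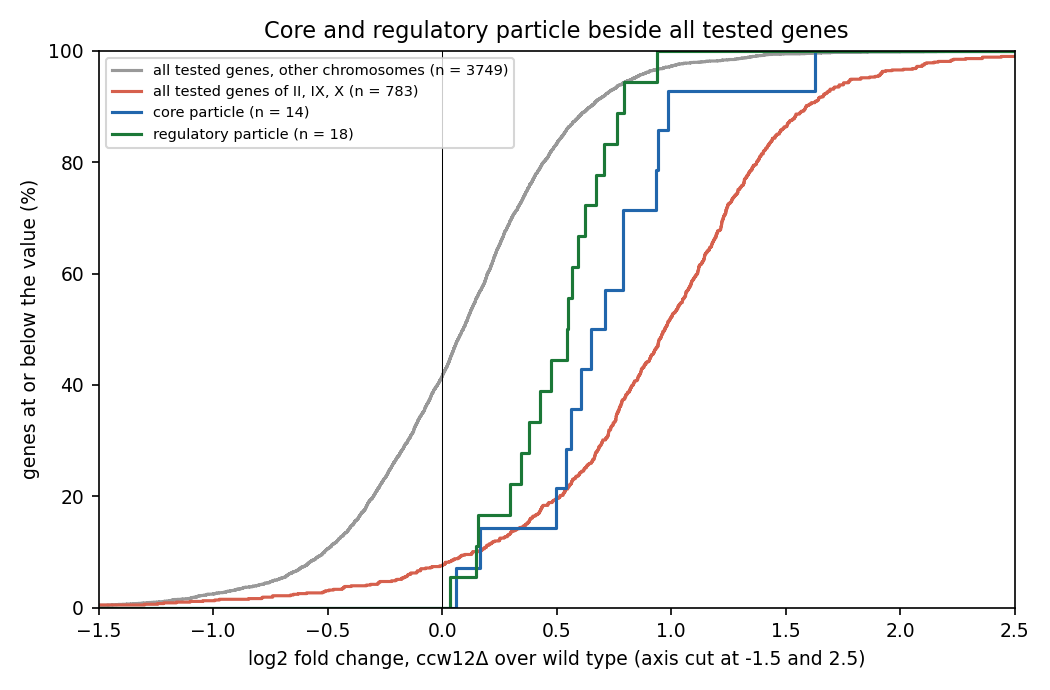
Cumulative share of genes (y axis, percent) at or below a log2 fold change (x axis, *ccw12*Δ over wild type) for the core particle, the regulatory particle, all tested genes of chromosomes II, IX and X and all tested genes of the other chromosomes. Both proteasome curves lie to the right of the curve of the other chromosomes, with medians of 0.68 and 0.55 against 0.09.

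Chromosomes II, IX and X, whose genes were higher as whole chromosomes, hold 4 of the 35 genes, *PRE7* and *UMP1* (II), *RPN2* (IX) and *PRE3* (X). Their median log2 fold change was 1.07, beside 0.97 for all tested genes of these chromosomes. Limma called *PRE7* among the 4, and 25.4% of all tested genes there. Measured from the median of its own chromosome, *PRE3* stood at -0.08, *RPN2* at 0.05, *UMP1* at 0.22 and *PRE7* at 0.69. The values of *PRE3* and *RPN2* were thus close to the median of the chromosome, and that of *PRE7* was above it. For *PRE3* this held for the brightest probe set, while its dimmer ones gave 1.81 and 2.13, above the chromosome X median of 1.06. Wild-type arrays lay far apart in the dimmer ones, at 165.4 and 320.7 for 1.81 and at 160 and 427.8 for 2.13. In both the lower signal was that of wild type replicate 1, the array with the high 3′ to 5′ ratio.

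The other 31 genes lie on 10 of the 13 remaining chromosomes, with 12 on IV and XV. Their median log2 fold change was 0.56 (a fold of 1.48), beside 0.09 for all tested genes of the other chromosomes. *RPN4* alone of the 31 was called by limma, against 1.09% of the genes there, and 25 of 31 had separate strains, against 28.3%. In 33 of the 35 genes the log2 fold change exceeded the median of the chromosome the gene lies on, the exceptions being *PRE3* and *RPN8*. The SD of the log2 fold change over the 31 genes was 0.29, the size of the median standard error of a single gene (0.29), and 0.51 over all tested genes of these chromosomes. The spread among the 31 genes was thus no larger than this median limma standard error, itself drawn toward that of other genes. Differences among the 31 genes were not tested.

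The mean log2 deviation of the 4 genes on chromosomes II, IX and X minus that of the 31 others was 0.20 in wild type replicate 1 and -0.20 in replicate 2, and it was 0.60 and 0.67 in the mutant replicates. The strains differed by 0.64 (SD of the 4 array ratios 0.23), more than the gap of the wild-type arrays. The two-sided exact permutation p was 0.333, the smallest possible, so the test could not have passed with 2 arrays per strain. The split by chromosome was chosen with earlier results of these data known, so this difference is a description and was not tested independently. After the median deviation of each chromosome was subtracted on each array, the difference of the medians turned to -0.34, with 0.15 for the 4 genes and 0.49 for the 31. The 35 genes then had a median of 0.48, 33 of 35 were above zero, beside 50.1% of all genes, and 11 of 35 were higher at an unadjusted p under 0.05, against 5.87% of all genes. None of the 35 passed limma in that setting, where 27 genes of the array did. Core and regulatory particle had medians of 0.50 and 0.45.

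**Figure D4:**
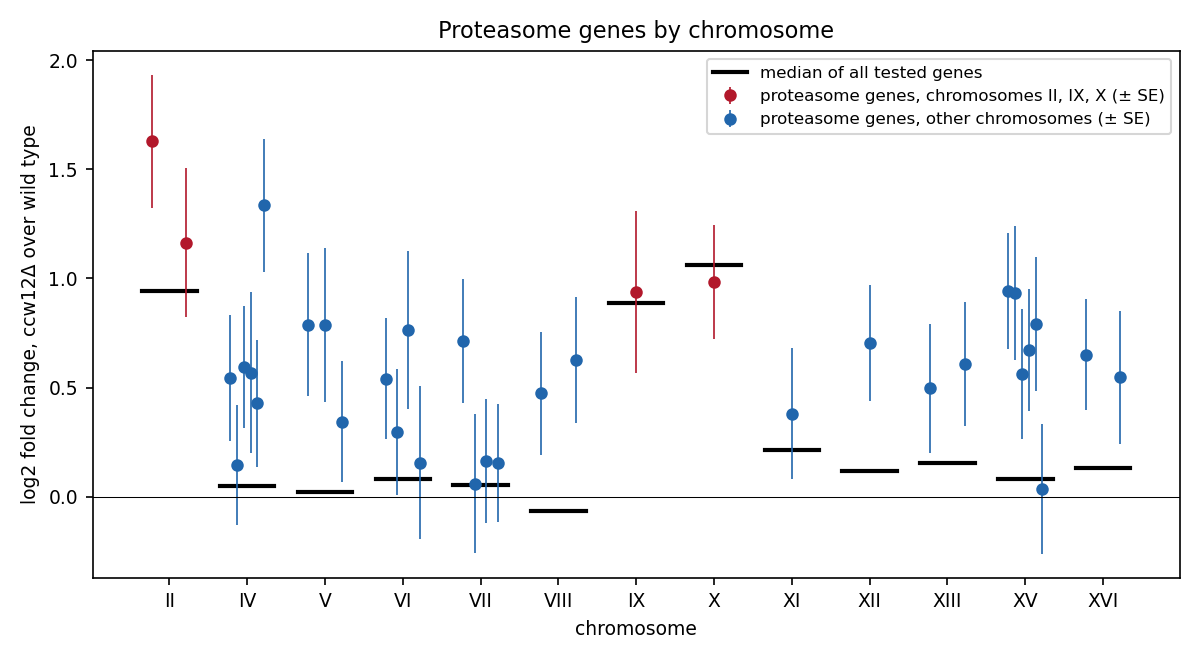
Log2 fold change of each proteasome gene (points) by chromosome, with the median of all tested genes of that chromosome as a bar. The bars of II, IX and X lie at 0.94, 0.89 and 1.06 and all others between -0.06 and 0.21, and 33 of 35 points lie above their bar.

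Further groups of the ubiquitin-proteasome system were set beside these genes. Dedicated chaperones assemble the core and the base. Of 10 genes for chaperones and associated proteins 2 passed limma (5.30% of all genes tested were higher) and 0 fell. The median log2 fold change of the 10 was 0.54. *HSM3* on chromosome II, coding for a base chaperone, had signals of 77.6 and 99.5 in the wild type and 194 and 249 in *ccw12*Δ, a log2 fold change of 1.32 (SE 0.31, limma adjusted p = 0.0429). *NAS2* on chromosome IX, also a base chaperone, had 78.5 and 55.0 against 147 and 213, a log2 fold change of 1.43 (SE 0.34, limma adjusted p = 0.0479). In both genes the strains were separate with the mutant higher, as in 83.5% of all tested genes of chromosomes II, IX and X. Limma called 25.4% of the tested genes of these chromosomes higher. With chromosomes centred the log2 fold changes of *HSM3* and *NAS2* were 0.40 and 0.55 and neither passed. The 8 chaperone genes on other chromosomes had a median of 0.50.

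Shuttle factors, the Cdc48p segregase with its cofactors, and deubiquitylases deliver and prepare substrates. Of these 11 genes 2 passed limma (5.30% of all genes tested were higher), 0 fell, and the median was 0.50. Strains were separate in 10 of the 11, against 37.8% of all genes. The genes that passed encode Cdc48p cofactors on chromosome II, and limma called 25.4% of all tested genes of chromosomes II, IX and X higher. *SHP1* had signals of 889 and 841 in the wild type and 2298 and 2747 in the mutant, a log2 fold change of 1.54 (SE 0.27, limma adjusted p = 0.0246). *NPL4* had 149 and 94.5 against 330.5 and 438, a log2 fold change of 1.68 (SE 0.33, limma adjusted p = 0.0293). Centring of chromosomes brought them to 0.61 and 0.76, and neither passed then.

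Among 15 genes of ubiquitin and its conjugation 0 passed limma in either direction, and the median was 0.22, near the 0.18 of all genes. Of the 6 genes that act on *RPN4* or its product 0 passed, with a median of 0.60. *YAP1*, which encodes a transcription factor of the oxidative stress response that binds the *RPN4* promoter, had 88.3 and 94.5 in the wild type against 164.5 and 217.5 in *ccw12*Δ. Strains were separate, with a log2 fold change of 1.05 (SE 0.30, limma adjusted p = 0.0764). *PDR3* on chromosome II, a drug resistance regulator that also binds there, had 86.9 and 146 against 246 and 253, with a log2 fold change of 1.15 (SE 0.33, limma adjusted p = 0.0764), and 0.22 with its chromosome centred. *UBR2*, for the ubiquitin ligase of Rpn4p, and *MUB1*, for its partner, had log2 fold changes of 0.22 and 0.57.

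**Figure D5:**
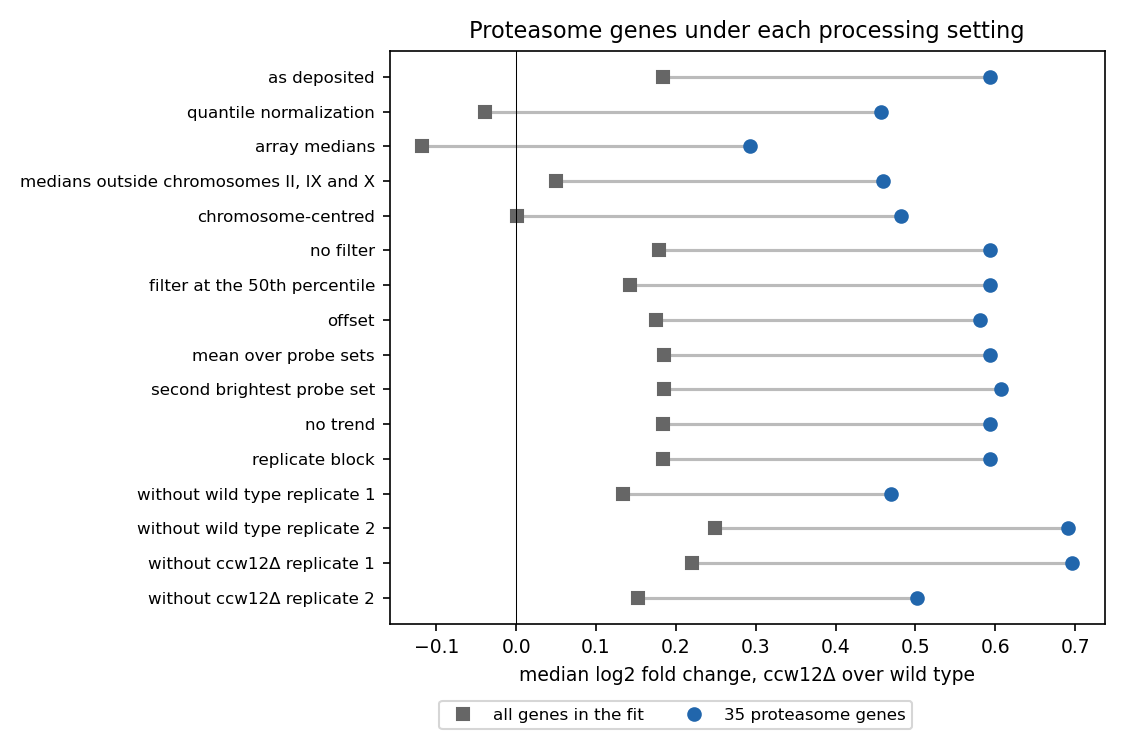
Median log2 fold change of the 35 proteasome genes (blue) and of all genes in the fit (grey squares) as deposited and in each of the 15 alternative settings. The blue point lies 0.33 to 0.50 to the right of the grey square in the alternatives, while the grey square moves from 0.18 to -0.12 with each array centred on its median.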

How the data were processed

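Total RNA of SEY6210 and MEY12A was hybridised to 4 single-colour arrays. The authors scanned them and computed signals with GCOS, and the submitters' processing notes name MAS5. The values analysed are the intensity signals the authors deposited, linear and scaled per array. No source used here states the scaling target. The number of arrays limits the precision.

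Of 9335 probe sets 60 were controls, 6504 name 1 gene and 328 several (not used). Chromosomes came from RefSeq by locus tag. A floor of 0.1 replaced 19 signals of zero before log2. The brightest probe set stood for a gene, chosen over all 4 arrays, and 4532 genes with a mean log2 signal at or above the 25th percentile (6.11) were tested with limma 3.58.1 in R 4.3.3 (lmFit, eBayes with trend), Benjamini-Hochberg adjusted at 0.05. The fold rule followed the study's methods without their detection and change calls. Centring by chromosome took off, per array, what its genes showed as median deviation from the wild-type mean. Plots used matplotlib 3.10.9.

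All 35 genes were named, and of each further list up to 2 genes that rose or fell the most among those that passed, besides *CCW12*, *URA3* and the mating type genes. *YAP1*, *PDR3*, *UBR2*, *MUB1*, *PEP4*, *CPS1* and *APE1* were named after their values were seen. Members, lists and the split by chromosome were chosen with earlier results of these data known. The fit was tested on simulated data. Alternatives were other normalizations, filters, an offset of 7.2, other probe sets, no trend, a replicate block and each array left out. A planned search of promoters for the Rpn4p binding site was not run, and sequences were not analysed here.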

Additional observations from a re-analysis of the deposited data

How the results depend on the processing

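With 2 arrays per strain the calls were few and moved with the processing. Limma called 2 of the 35 genes as deposited, and 0 after quantile normalization, after centring on array medians, on medians outside chromosomes II, IX and X or by chromosome, and with no filter on dim genes. It called 1 with the second brightest probe set, and 0 to 19 with an array left out. Same-numbered arrays share only a number (the correlation of their deviations was -0.139). With the replicate block 6 were called (*PRE6*, *PRE3*, *PRE7*, *RPN2*, *RPN4* and *UMP1*). The crossed pairing, which was added after seeing the data, also gave 6, but no share of all genes stands beside that count. All genes called higher numbered 240 as deposited, 19, 25, 50 and 11 in the normalizations in the order above, 33 with no filter, 109 with the second brightest probe set, 505 with the block and 62 to 989 with an array left out. Of the 35 genes 0 were lower by limma in any of these settings. The fold rule picked 3 genes as deposited (10.4% of all genes), 1 with chromosomes centred (2.32%) and 5 with the second brightest probe set (10.6%). With an array left out the fold rule picked 3 to 8, against 9.66% to 14% of all genes. Separate strains with *ccw12*Δ higher numbered 29 (37.8% of all genes) and, on array medians, 16 (21.4% of all genes). On array medians the median log2 fold change was 0.29 for the 35 genes, 0.38 for the core, 0.24 for the regulatory particle, 0.77 for the genes of chromosomes II, IX and X and 0.26 for the others. The regulatory median was 0.32 after quantile normalization and 0.41 on medians outside those chromosomes. The genes of chromosomes II, IX and X had a median of 0.15 with chromosomes centred and 1.40 with the mean over probe sets or the second brightest. Their difference from the others, 0.51 as deposited, reversed to -0.34 with chromosomes centred and was 0.31 to 0.94 with an array left out. The cause of these shifts was not tested beyond the construction of each setting.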

Other observations

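The proteases of the vacuole, the other main site of protein breakdown in yeast, were measured beside the proteasome. Of 6 genes 0 passed limma in either direction, and the median log2 fold change was 0.32. *PEP4*, coding for the protease that activates the others, had signals of 5435 and 5062 in the wild type and 5928 and 6918 in *ccw12*Δ, with a log2 fold change of 0.29 (SE 0.21, limma adjusted p = 0.474). *CPS1* on chromosome X, for a carboxypeptidase, had 277.5 and 165 against 396 and 631, with a log2 fold change of 1.23 (SE 0.36, limma adjusted p = 0.0830), and 0.16 with its chromosome centred. The aminopeptidase gene *APE1* was the 1 member of the 6 with a value below zero, at -0.28 (SE 0.39), and its strains overlapped.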
